A study of Rattus norvegicus with 12 samples.

Results

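The genes described here were those whose FPKM (fragments per kilobase of exon and per unit of mapped fragments, a level corrected for gene length and library size) was lower in every TCDCA library than in every control library. TCDCA is taurochenodeoxycholic acid, a taurine-conjugated bile acid. The cells were third-passage fibroblast-like synoviocytes (FLS), the fibroblasts that line the joint, grown out of synovial tissue of male Sprague Dawley rats with adjuvant arthritis (AA), and every group, the controls included, was made of such AA cells. Control cells (FCA group) were kept in DMEM with no TCDCA, while TCDCA was given for 12 h at 10 µM in AT10, 1 µM in AT1 and 0.1 µM in AT01. Each group had 3 libraries, 12 in all. The sources do not say whether the 3 libraries of a group came from separate animals or cultures, so the p-values below measure only the spread between these libraries, which may be technical. No group of cells from healthy joints was among the libraries used.

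A gene record was chosen when it averaged at least 1 FPKM over the 12 libraries and when its highest value in the 9 TCDCA libraries was below its lowest value in the 3 FCA libraries. This held for 221 of the 11611 records that averaged at least 1 FPKM, which is 1.9% of them, out of 22442 records in the table. The opposite pattern, higher in every TCDCA library, held for 111 records (0.956%). Without the minimum of 1 FPKM, 263 records were lower in every TCDCA library. Because the members were chosen on FCA against TCDCA, every difference from FCA below is a description without a test. The split between lower and higher records depended on the scaling of the libraries. When each library was divided by its own sum of FPKM, which ranged from 284210 to 309700, 128 records were lower and 121 were higher, so that the lower records made up 51.41% of both instead of 66.57%. Under that scaling 106 of the 221 members remained lower in every TCDCA library, while under median-of-ratios scaling 201 remained and the split was 247 lower to 100 higher. The mean difference stayed below 0 for all 221 members under both scalings.

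FLS build and remodel the joint's extracellular matrix. They secrete collagens and proteoglycans, anchor to that matrix through adhesion complexes tied to the actin cytoskeleton, and in arthritis they respond to cytokines such as TNF. Bile acids signal in many cell types through membrane and nuclear receptors. The libraries carried the transcripts that define these cells, since 18 of 20 listed FLS markers were found, with a summed level of 8139.5 to 8540.3 FPKM in FCA and 7111.3 to 8624.6 FPKM in TCDCA. Among the 18 found, Thy1, a surface glycoprotein of fibroblasts, was the only member. It was at 153.58, 157.89 and 151.7 FPKM in FCA and 112.46 to 146.29 FPKM in TCDCA. The alpha 2 chain of type I collagen was named NEWGENE_621351 in the deposited data and was not among the 18 found. Both of its records were members, together at 959.66 to 1063 FPKM in FCA and 681.32 to 947.39 FPKM in TCDCA. The summed level of the FLS markers leaves these records out. T cell markers summed to at most 0.24 FPKM in any library. The macrophage markers summed to 6.9 to 22.08 FPKM in FCA and 5.89 to 21.72 FPKM in TCDCA. Of the 8 macrophage markers found, 3 (Adgre1, Aif1 and Mrc1) were below 0.1 FPKM throughout, and the others carried the sum. The endothelial markers summed to 19.24 to 22.23 FPKM in FCA and 16.84 to 22.12 FPKM in TCDCA. Of the 8 endothelial markers found, 6 (Cdh5, Emcn, Esam, Kdr, Tie1 and Vwf) were below 0.1 FPKM throughout, and the others carried the sum. Adipocyte (43.21 to 53.73 against 36.44 to 51.72 FPKM), chondrocyte (8.71 to 11.1 against 5.49 to 10.19 FPKM) and skeletal muscle markers (1.55 to 2.42 against 1.37 to 2.17 FPKM) also overlapped between FCA and TCDCA.

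For most members the difference was small. On the log2(FPKM + 1) scale, the median difference of the TCDCA mean from the FCA mean was -0.23, with quartiles of -0.31 and -0.17, while the median over all tested records was 0.0031. In plain FPKM, the median member stood at 84.1% of its FCA mean under TCDCA, with a range from 14.2% to 95.7%. A difference beyond 1 on the log2 scale was found in 8 members and beyond 0.5 in 19, and 199 lay between 0.1 and 0.5. The gap between the lowest FCA and the highest TCDCA library was under 0.05 for 145 members and over 1 for 2 (Gnpda1 and Tor4a). The members were on the whole more abundant than the rest, with a median of 12 FPKM against 6.515 FPKM for all tested records, and 10.9% of them reached 100 FPKM against 4.29%. Their libraries also varied less within FCA, with a median SD of 0.053 on the log2 scale against 0.127 for all tested records. Non-overlap of the groups is itself more easily met where the spread is small, so this property was in part fixed by the rule. Whether the rule also favours abundant records was not tested, and the shares of gene lists below were not matched for level.

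**Figure D1:**
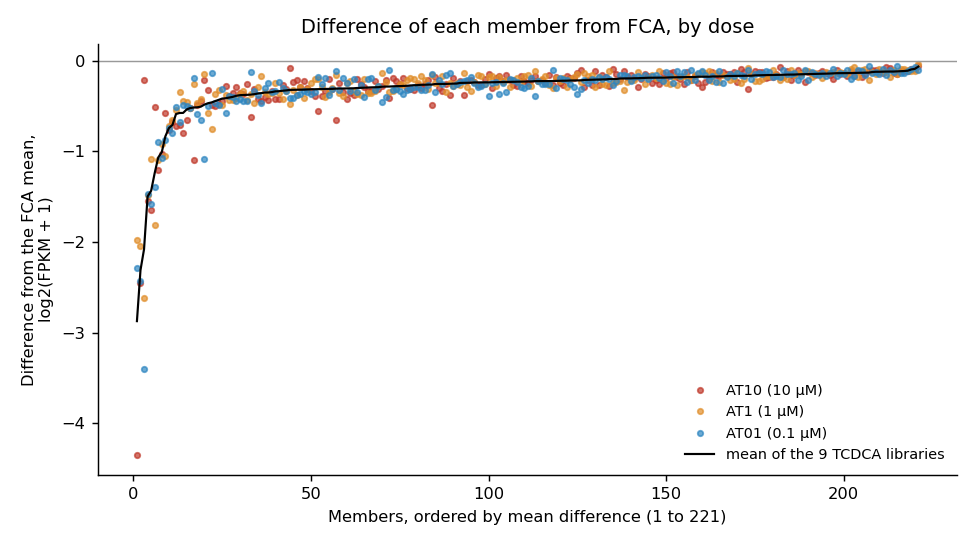
Difference of each of the 221 members from the FCA mean on the log2(FPKM + 1) scale (vertical axis), with members ordered by the mean over the 9 TCDCA libraries (horizontal axis, black line) and 1 point per dose. Beyond the first 19 members the line stays within 0.5 of 0, and the points of the 3 doses lie on both sides of it.

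Tor4a and Gnpda1 were the clearest cases. Tor4a encodes a torsin-family ATPase. Its level was 11.89, 13.05 and 9.66 FPKM in FCA, 0.66, 1.23 and 2.15 FPKM in AT10, 2.03, 3.6 and 0.96 FPKM in AT1, and 1.89, 0.86 and 1.32 FPKM in AT01. The highest TCDCA library thus held 3.6 FPKM and the lowest FCA library 9.66 FPKM, and the TCDCA mean was 14.2% of the FCA mean. Gnpda1, a glucosamine-6-phosphate deaminase that links amino sugar metabolism to glycolysis, was at 26.33, 24.16 and 24.87 FPKM in FCA. It was at 6.98, 7.97 and 9 FPKM in AT10, 8.28, 7.30 and 9.75 FPKM in AT1, and 9.22, 7.78 and 8.30 FPKM in AT01. Its 9 TCDCA libraries lay close together at 33.0% of the FCA mean, and the 3 doses overlapped. Both genes remained lower in every TCDCA library under each of the other 2 scalings.

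A further 2 member records of low level had wide gaps. Zfp652, a zinc finger transcription repressor, was at 3.40, 3.37 and 2.58 FPKM in FCA and between 0.46 and 1.55 FPKM in TCDCA. Cadm4, an immunoglobulin-type cell adhesion molecule, was at 3.26, 3.46 and 3.12 FPKM in FCA and between 0.57 and 2.30 FPKM in TCDCA. The doses overlapped in Zfp652, and in Cadm4 the AT10 libraries (2.30, 1.69 and 1.69 FPKM) lay nearest to FCA. Each of these names was on 1 further record. Summed over both, Cadm4 was at 16.04 to 16.44 FPKM in FCA and 11.25 to 14.58 FPKM in TCDCA, a log2 difference of -0.29 in place of -0.83, and Zfp652 at 4.03 to 4.59 and 1.58 to 3.08 FPKM, a log2 difference of -0.69 in place of -1.07. The remaining members with the 8 widest gaps were Cep170b, Mrgprf, Fbrs and Fkbp8. Of these, Fkbp8, an immunophilin-like chaperone of the mitochondrial surface, was the most abundant, at 97.77, 90.57 and 90.32 FPKM in FCA and 66.79 to 79.09 FPKM in TCDCA. Fbrs was at 13.73, 14.58 and 13.78 FPKM in FCA and 9.04 to 11.77 FPKM in TCDCA, and the centrosomal gene Cep170b at 9.23, 9.80 and 9.61 FPKM in FCA and 6.16 to 7.56 FPKM in TCDCA. In these 3 genes every TCDCA library stood under every FCA library by more than the range of the FCA libraries.

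**Figure D2:**
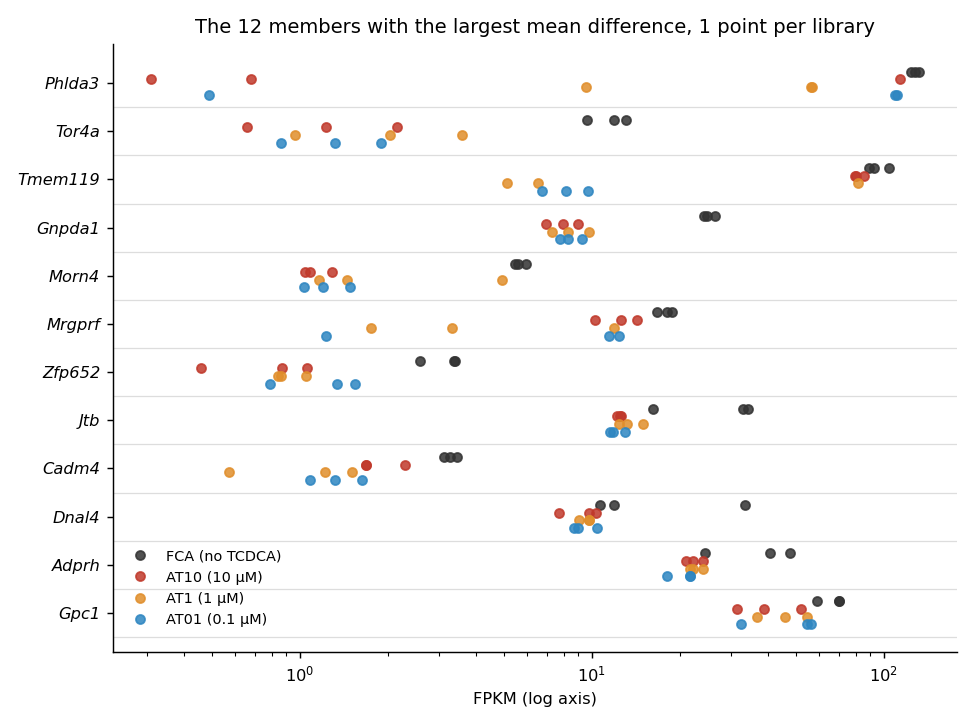
FPKM (horizontal log axis) of the 12 members with the largest mean difference, 1 point per library, with FCA and the 3 TCDCA doses in separate colours. Tor4a and Gnpda1 show 2 groups set apart, Phlda3, Tmem119 and Mrgprf show TCDCA libraries at several levels, in Jtb and Adprh 1 FCA library lies beside the TCDCA libraries, and in Dnal4 2 FCA libraries do.

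Several other large differences came with libraries of one group at unlike levels. Phlda3, a p53 target that binds membrane phosphoinositides and restrains Akt, had the largest mean difference of all members. It was at 124.02, 132.03 and 127.64 FPKM in FCA, 0.68, 0.31 and 113.16 FPKM in AT10, 56.53, 56.56 and 9.55 FPKM in AT1, and 0.49, 110.94 and 109.32 FPKM in AT01. Within both AT10 and AT01 the libraries therefore ranged from under 1 FPKM to over 100 FPKM. Mrgprf, an orphan G protein-coupled receptor, was at 16.75, 18.10 and 18.79 FPKM in FCA, 14.26, 12.58 and 10.28 FPKM in AT10, 1.75, 11.92 and 3.32 FPKM in AT1, and 1.23, 12.36 and 11.49 FPKM in AT01. Morn4 was at 5.46, 5.96 and 5.58 FPKM in FCA and between 1.03 and 1.48 FPKM in 8 TCDCA libraries, with the remaining library, AT1 replicate 2, at 4.94 FPKM. Plekhf1, an endosomal phosphoinositide-binding protein named after its values were seen, was at 7.84, 7.99 and 8.10 FPKM in FCA, and its mean was lowered by AT01 replicate 3 alone, at 0.14 FPKM against 6.56 to 7.60 FPKM in the other TCDCA libraries. In a further 3 members the spread lay in FCA. Jtb was at 32.85, 16.26 and 34.34 FPKM in FCA and 11.57 to 15.02 FPKM in TCDCA. Dnal4, a dynein light chain, was at 11.95, 33.50 and 10.68 FPKM in FCA and 7.73 to 10.41 FPKM in TCDCA. Adprh, an ADP-ribosylarginine hydrolase, was at 24.38, 47.57 and 40.74 FPKM in FCA and 18.09 to 24.10 FPKM in TCDCA. Dnal4 and Adprh were the only 2 of the 12 members with the largest differences that overlapped between FCA and TCDCA when libraries were scaled to their sums. Over the whole set, 4 members (Tmem119, Gnpda1, Morn4 and Mrgprf) had 2 levels separated by more than 1 on the log2 scale, which is 1.81% of members against 4.52% of all tested records. In Gnpda1 the gap was that between FCA and TCDCA.

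Extracellular matrix genes formed the list with the highest share of members. Of 56 tested records for collagens and other fibrillar matrix proteins, 8 were members (14.3%, against 1.9% over all tested records) and 1, Lum, was higher in every TCDCA library. The median difference of the whole list was -0.09 on the log2 scale, and 38 of its 56 records (67.9%) had a mean below that of FCA, against 49.3% of all tested records. One record of the list, Col4a3bp, was matched by its name and encodes a ceramide carrier, and without it the members were 8 of 55 (14.5%) and 38 of the 55 (69.1%) had a mean below FCA. The 8 members were Col4a1, Col4a2, Col5a3, Col6a1, Col18a1, Tnxb, Thbs4 and Bgn. In the gene annotation deposited with the table, the term extracellular matrix was on 7.35% of the annotated members and 2.29% of the annotated tested records. That count was taken over the same members, so it is not a second line of support.

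Col4a1 and Col4a2 encode the paired chains of basement membrane collagen and lie next to each other in the genome, head to head. Col4a1 was at 274.94, 288.6 and 308.47 FPKM in FCA, 256.4, 249.0 and 206.7 FPKM in AT10, 253.0, 256.3 and 243.7 FPKM in AT1, and 258.26, 234.5 and 206.9 FPKM in AT01. Col4a2 was at 217.66, 226.7 and 234.43 FPKM in FCA and between 152.76 and 201.09 FPKM in TCDCA. The chains stood at 82.8% and 83.1% of FCA. Col6a1, a chain of the beaded microfibrils around cells, was at 57.29, 57.47 and 58.17 FPKM in FCA and between 38.46 and 52.78 FPKM in TCDCA. Col5a3, a minor fibril-forming chain, was at 8.89, 8.78 and 8.16 FPKM in FCA and 5.19 to 7.10 FPKM in TCDCA. Col18a1, whose product carries endostatin, was at 24.05, 25.24 and 24.12 FPKM in FCA and 17.75 to 23.06 FPKM in TCDCA. For Col4a1, Col4a2 and Col6a1 the lowest of the 12 libraries was AT10 replicate 3.

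A further 3 members were collagens by the deposited description but not by gene name. Both records of NEWGENE_621351, described as the alpha 2 chain of type I collagen, were members. The first was at 507.9, 547.7 and 493.3 FPKM in FCA and 348.6 to 481.9 FPKM in TCDCA, and the second at 485.1, 515.2 and 466.3 FPKM in FCA and 332.7 to 465.5 FPKM in TCDCA. Summed over both records the gene was at 959.66 to 1063 FPKM in FCA and 681.32 to 947.39 FPKM in TCDCA. LOC108348074, described as a collagen alpha-1(XV) chain-like gene, was at 57.88, 64.18 and 60.94 FPKM in FCA and 46.60 to 57.32 FPKM in TCDCA. Its reads could be shared with Col15a1, whose own FCA and TCDCA values overlapped.

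Most other collagens did not meet the rule. Of 23 collagen records with a gene name, 5 were members and 20 had a TCDCA mean below that of FCA, with a median difference of -0.18 on the log2 scale. Col1a1, the main chain of type I collagen, was at 900.25 to 1071.96 FPKM in FCA and 571.15 to 979.21 FPKM in TCDCA, so that the groups overlapped. Col3a1 (876.21 to 997.77 FPKM in FCA and 683.29 to 915.05 FPKM in TCDCA), Col5a1 (99.99 to 112.54 and 73.35 to 108.52 FPKM) and Col6a2 (94.47 to 126.8 and 65.56 to 104.08 FPKM) overlapped as well. These genes were named after their values were seen.

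**Figure D3:**
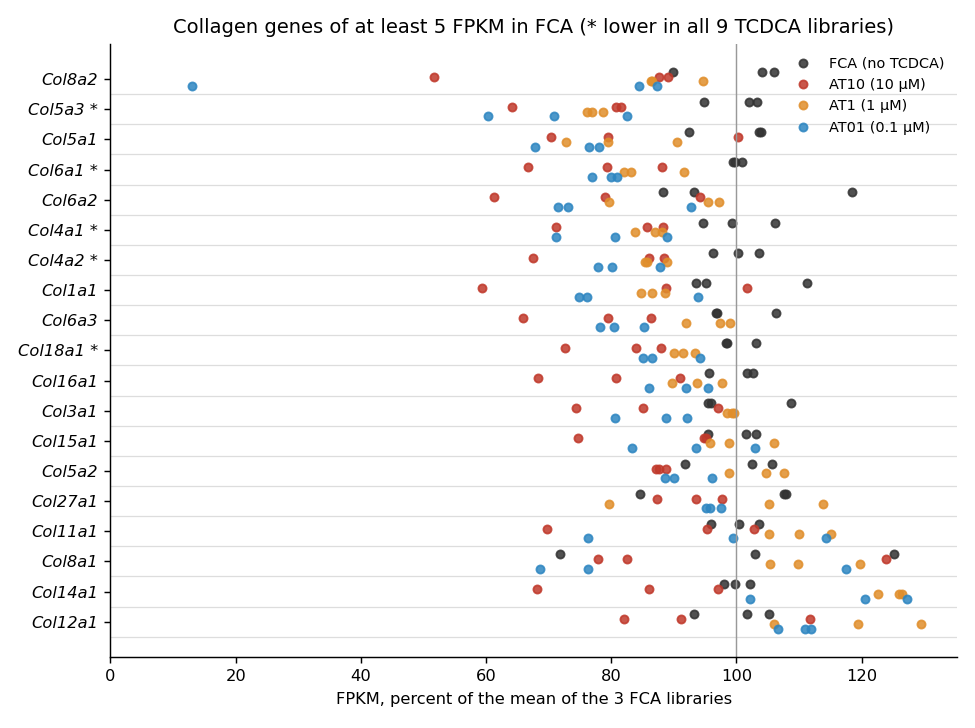
FPKM as a percent of the mean of the 3 FCA libraries (horizontal axis) for the 19 collagen records of at least 5 FPKM in FCA, 1 point per library, with members marked by an asterisk. In the 5 members every TCDCA point lies left of every FCA point, and in Col1a1, Col3a1 and Col5a1 the points overlap.

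Among the proteoglycans and matrix enzymes, Bgn (biglycan, a small leucine-rich proteoglycan) was at 869.86, 857.4 and 855.11 FPKM in FCA and 700.74 to 828.72 FPKM in TCDCA. It stood at 91.5% of FCA, and its FCA libraries lay close together. Gpc1, a heparan sulfate proteoglycan of the cell surface, was lower by more, at 70.08, 70.10 and 59.05 FPKM in FCA and 31.46 to 56.48 FPKM in TCDCA. Acan, the large aggregating proteoglycan of cartilage, was at 5.79, 4.89 and 4.91 FPKM in FCA and 2.74 to 4.58 FPKM in TCDCA. Of the 8 chondrocyte markers found, 3 (Col2a1, Col9a1 and Hapln1) were below 0.1 FPKM in every library. Another 3, Acan among them, averaged at least 1 FPKM. Thbs4 was at 23.72, 23.74 and 22.77 FPKM in FCA and 16.06 to 22.08 FPKM in TCDCA. Of the 55 tested matrix processing enzymes 2 were members (3.64%), namely Bmp1, which trims procollagens, at 90.5% of FCA, and Adamts10 at 89.1%. Mrc2, an endocytic collagen receptor named after its values were seen, was at 50.80, 51.21 and 52.20 FPKM in FCA and 36.89 to 48.68 FPKM in TCDCA. Tnxb was lower as a single record only, since its 3 records summed to 5.05 to 5.56 FPKM in FCA and 3.66 to 6.57 FPKM in TCDCA. Counted with the collagens, 18 member records were grouped by hand as matrix genes. Of these, 9 remained lower in every TCDCA library when libraries were scaled to their sums, against 106 of all 221 members. They were 5 of 8 collagen records and 4 of 10 others.

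Acta2, smooth muscle alpha-actin and a marker of contractile fibroblasts, was the member of highest level among the large differences. It was at 370.12, 317.43 and 263.19 FPKM in FCA, 255.5, 247.28 and 125.35 FPKM in AT10, 245.8, 223.82 and 216.09 FPKM in AT1, and 184.54, 246.88 and 239.13 FPKM in AT01. The TCDCA mean was 69.6% of the FCA mean, and the FCA libraries themselves spread over more than 100 FPKM. Acta2 overlapped between FCA and TCDCA when libraries were scaled to their sums. The list of smooth muscle and pericyte markers summed to 318.03 to 420.53 FPKM in FCA and 166.64 to 316.38 FPKM in TCDCA. Without Acta2 the other 6 found summed to 40.88 to 54.84 FPKM in FCA and 41.29 to 60.88 FPKM in TCDCA, which overlapped. Fewer cells of a type and less RNA per cell cannot be told apart in these bulk libraries. The myosin light chains Myl9 and Myl12a, which regulate contraction, were also members. Myl9 was at 60.73, 61.65 and 59.37 FPKM in FCA and 43.20 to 57.09 FPKM in TCDCA, and Myl12a at 145.2, 154.9 and 144.8 FPKM in FCA and 114.2 to 139.6 FPKM in TCDCA. Tln1 (talin, which couples integrins to actin) was at 46.80, 47.73 and 46.05 FPKM in FCA and 35.37 to 45.81 FPKM in TCDCA. LOC100364435, a thymosin beta 10-like gene and the most abundant member, was at 1491, 1637 and 1475 FPKM in FCA and 743.5 to 1452 FPKM in TCDCA. In the lists, 1 of 34 integrin and focal adhesion genes was a member (2.94%). By hand, 16 members were grouped as actin, myosin and adhesion genes, with a median of 84.4% of FCA, against 84.1% for all members. Under scaling to the library sums 6 of the 16 remained lower, against 106 of all 221 members.

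The 250 bases before the annotated gene start are shown for 4 of these genes, which are the 2 members with the widest gap and 1 gene each of the contractile and the matrix group. They come from the RefSeq promoter table for GRCr8, at chr3:28406142-28406391 (minus strand) for Tor4a, chr18:30428631-30428880 (minus strand) for Gnpda1, chr1:241172504-241172753 (minus strand) for Acta2 and chr16:84885347-84885596 (plus strand) for Col4a1, each written in the direction of its gene. Capitals mark matches on either strand of the GC box with the letters GGGCGG, the CCAAT box, the TATA box with the letters TATAAA, the core of the cAMP response element with the letters TGACG, the core of the glucocorticoid response element with the letters AGAACA, the E-box with the letters CACGTG, the AP-1 site with the letters TGACTCA, and the CArG box.
Tor4a: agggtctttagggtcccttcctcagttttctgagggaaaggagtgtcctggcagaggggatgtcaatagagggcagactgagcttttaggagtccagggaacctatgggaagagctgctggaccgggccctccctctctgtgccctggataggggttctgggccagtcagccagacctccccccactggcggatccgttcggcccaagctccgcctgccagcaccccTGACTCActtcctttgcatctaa
Gnpda1: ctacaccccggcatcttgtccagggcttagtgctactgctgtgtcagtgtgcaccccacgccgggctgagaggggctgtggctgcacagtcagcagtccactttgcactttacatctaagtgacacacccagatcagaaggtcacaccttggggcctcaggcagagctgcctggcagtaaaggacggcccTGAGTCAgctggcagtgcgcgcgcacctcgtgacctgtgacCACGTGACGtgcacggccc
Acta2: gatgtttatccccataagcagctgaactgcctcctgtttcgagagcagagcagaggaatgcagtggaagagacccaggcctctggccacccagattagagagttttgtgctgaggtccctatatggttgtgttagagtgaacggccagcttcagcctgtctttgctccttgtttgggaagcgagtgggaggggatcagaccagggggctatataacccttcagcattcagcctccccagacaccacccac
Col4a1: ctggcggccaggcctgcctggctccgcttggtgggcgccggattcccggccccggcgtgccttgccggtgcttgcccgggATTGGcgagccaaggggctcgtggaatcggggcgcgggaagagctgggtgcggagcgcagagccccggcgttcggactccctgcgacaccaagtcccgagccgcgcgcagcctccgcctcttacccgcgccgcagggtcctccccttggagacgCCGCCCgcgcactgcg

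Both Tor4a and Gnpda1 held 1 AP-1 site, a sequence found in 4.05% of the 33469 promoters of the table. In Gnpda1 the E-box (5.59% of promoters) overlapped the core of the cAMP response element (18.2%). Col4a1 held 1 GC box (30.5%) and 1 CCAAT box (34%), both on the other strand. In the Acta2 window no exact match was found. The CArG box was searched only in its strict form, CC and GG around 6 bases of A or T, and near matches were not searched, so nothing follows for Acta2 about the factor that binds it. TATAAA was found in 12.9% of the promoters, AGAACA in 17.5% and the CArG box in 1.5%. A match describes the letters only. A promoter was found for 172 of the 221 members, too few (77.8%) to compare motif shares between members and other genes.

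Genes of protein synthesis were among the most abundant members and had small differences. Of 81 tested cytosolic ribosomal protein records 4 were members (4.94%), and the list's median difference was -0.07 on the log2 scale. Rpl23a was at 984.8, 1012 and 999.5 FPKM in FCA and 776.1 to 981.8 FPKM in TCDCA. Rpl14 stood at 87.2% and Rps10 at 92.6% of FCA. Ribosomal protein genes have many processed copies in the rat genome, so reads could be split between records. Of 64 translation factors 3 were members (4.69%). Eef2, the elongation factor that moves the ribosome along the mRNA, was at 665.2, 668.5 and 682.5 FPKM in FCA and 536.8 to 654.1 FPKM in TCDCA. Eef1g was at 576.5, 578.3 and 555.5 FPKM in FCA and 466.4 to 553.0 FPKM in TCDCA, and Eif3f at 130.3, 129.8 and 131.3 FPKM in FCA and 101.2 to 129.2 FPKM in TCDCA. With Wdr46 and Rrp12 (2 of 51 ribosome biogenesis genes, 3.92%) and others, 14 members were grouped by hand here. Their median was 88.9% of FCA, the nearest to FCA of the 8 groups set by hand, against 84.1% for all members. Under scaling to the library sums 4 of the 14 remained lower, against 106 of all 221 members.

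Inflammatory genes were also among the members. Of 87 tested NF-kB and inflammatory mediator records 3 were members (3.45%, against 1.9% over all tested records), with a list median of -0.02 on the log2 scale. Tnfrsf1a, a receptor for TNF, was at 60.63, 62.03 and 57.85 FPKM in FCA and 44.88 to 57.41 FPKM in TCDCA. Nfkbie, an inhibitor of NF-kB, was at 4.06, 3.97 and 4 FPKM in FCA and 2.98 to 3.83 FPKM in TCDCA. The members thus included both a receptor upstream of NF-kB and an inhibitor of it. Under both other scalings of the libraries Nfkbie remained lower in every TCDCA library, while Tnfrsf1a did not. Il17re was at 1.98, 1.77 and 1.65 FPKM in FCA and 0.95 to 1.55 FPKM in TCDCA. Cfd (complement factor D, 1 of 13 complement genes) was at 23.74, 27.29 and 27.25 FPKM in FCA and 17.94 to 23.48 FPKM in TCDCA. Cyba, a subunit of the NADPH oxidase, and Jak3, a kinase of cytokine receptors that was named after its values were seen, stood at 80.6% and 81.3% of FCA. None of the 27 tested AP-1 and immediate early genes was a member although their median difference was -0.255 on the log2 scale, and none of the 25 glucocorticoid receptor genes and targets or the 52 interferon response genes was one. Of 37 cAMP, PKA and CREB target genes 1 was a member, the CREB coactivator Crtc1, at 89.2% of FCA, and 1 was higher in every TCDCA library.

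The signaling and transport members were spread over many families. In the MAPK, PI3K and mTOR list 3 of 106 were members (2.83%) and 2 were higher in every TCDCA library. Akt2 was at 25.94, 26.27 and 27.77 FPKM in FCA and in TCDCA at 14.48 FPKM in AT10 replicate 2, 14.90 FPKM in AT1 replicate 3 and 22.12 to 25.53 FPKM in the other 7 libraries. Grb2, an adaptor of growth factor receptors, was at 53.70, 56.20 and 54.41 FPKM in FCA and at 20.85 FPKM in AT10 replicate 2, with 44.86 to 52.93 FPKM in the other TCDCA libraries. Dvl3, a Wnt pathway adaptor (1 of 32, 3.12%), was at 17.55, 15.56 and 15.44 FPKM in FCA and at 6.14 to 15.07 FPKM in TCDCA. In these 3 genes 1 to 3 libraries lay far below the other TCDCA libraries. Of 230 solute carriers and channels 4 were members (1.74%) and 4 were higher in every TCDCA library. Aqp1, a water channel, was the most abundant of them, at 633.8, 531.0 and 523.7 FPKM in FCA and 387.1 to 515.2 FPKM in TCDCA. Of 86 protein phosphatase genes 5 were members (5.81%), led by Ptprn at 159.7, 159.0 and 164.0 FPKM in FCA and 120.9 to 152.0 FPKM in TCDCA.

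In all, 56 gene lists were counted, of which 36 held a member and 20 held none, and 69 of the 221 members were in a list. Lists without a member included oxidative phosphorylation subunits (84 records), splicing factors (103), mitosis and G2/M (66) and DNA replication and G1/S (59). Single lists with the lowest shares among those that held a member were ubiquitin ligases (1 of 195, 0.513%), chromatin modifiers (1 of 109, Smarca4) and zinc finger proteins (2 of 213, Zfp652 and Zbtb22). In the deposited annotation the term mitochondrion was on 8.09% of annotated members against 12% of annotated tested records, and focal adhesion on 5.88% against 2.98%. Along the genome 12 of 207 placed members (5.8%) had another member as their next gene, against 2.44% of tested genes that had a member there. The 6 pairs were Col4a1 and Col4a2, Eef2 and Pias4, Emp3 and Tmem143, Fbrs and Prr14, Gmppa and Speg, and Suds3 and Taok3.

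The members showed no common order over the 3 doses. The median difference from FCA was -0.217 on the log2 scale in AT10, -0.216 in AT1 and -0.217 in AT01. Over all tested records those medians were -0.0085, 0.0156 and 0.0017. The lowest dose mean was AT10 in 73 members (33%), AT1 in 66 (29.9%) and AT01 in 82 (37.1%), and over all tested records these shares were 37.5%, 27.1% and 35.4%. The order that a graded fall with dose would give, AT10 below AT1 below AT01, was seen in 34 members (15.4%, against 17% of all tested records), and the reverse order in 41 (18.6%, against 20.1%).

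**Figure D4:**
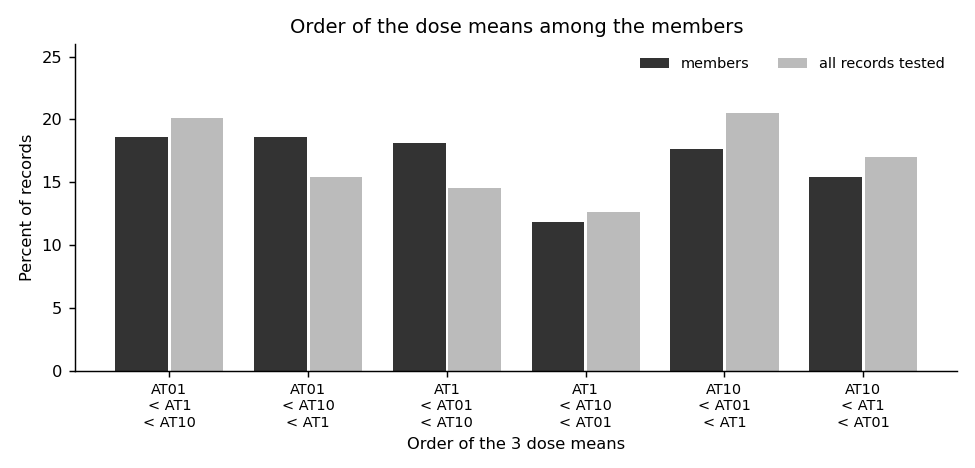
Percent of the 221 members (dark bars) and of all 11611 tested records (light bars) with each of the 6 possible orders of the 3 dose means on the log2(FPKM + 1) scale. The shares of the members run from 11.8% to 18.6%, and those of all tested records from 12.6% to 20.5%.

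The rule compared no dose with another, so comparisons between doses were tested, with the limit given below. With limma on the log2(FPKM + 1) values and Benjamini-Hochberg adjustment over the 11611 records, AT10 against AT1 gave 30 records at an adjusted p under 0.05 (0.258%), AT10 against AT01 gave 8 (0.0689%) and AT1 against AT01 gave 15 (0.129%). Of the members 0, 1 and 0 were among them. With the replicate number as a block, limma gave 1, 0 and 2 records and 0 members in each comparison. A fit of the slope over log10 dose in the 9 TCDCA libraries called 0 records (0%) and 0 members. At an unadjusted p under 0.05, limma gave 3, 4 and 1 members in the 3 comparisons (1.36%, 1.81% and 0.452% of the members, against 6.46%, 4.97% and 3.43% of all tested records) and 4 for the slope (1.81% against 6.24%). A member had to be low in all 9 TCDCA libraries, which limits how far its doses can lie apart. The median SD over those libraries was 0.109 on the log2 scale for members and 0.171 for all tested records. The low shares of members were thus in part set by the choice. These counts do not show that the doses act alike.

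The member called was Tmem119, a membrane protein of fibroblasts, osteoblasts and microglia. Its level was 92.74, 104.0 and 89.16 FPKM in FCA, 85.65, 80.03 and 79.57 FPKM in AT10, 5.11, 6.55 and 81.37 FPKM in AT1, and 9.68, 6.76 and 8.13 FPKM in AT01. All AT10 libraries and 1 AT1 library thus stood just under FCA, and the other 5 TCDCA libraries were below 10 FPKM. AT10 was higher than AT01 by 3.18 on the log2 scale (SE 0.13, limma adjusted p = 0.00123, higher in 3 of 3 libraries), and an exact two-sided permutation test gave p = 0.1, the smallest that 3 against 3 libraries allow. The adjusted p was 0.426 when all 12 libraries shared one fit and 0.0507 with the replicate number as a block, so that the call was lost in both. The difference between AT10 and AT1 was not called (the smallest adjusted p of any member there was 0.162), and without AT1 replicate 3 it was 3.61 (SE 0.114, limma adjusted p = 0.00294).

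The other members with an unadjusted p under 0.05 between doses moved in both directions. Csrnp1, a nuclear protein that AXIN1 induces, was at 23.89, 23.41 and 23.59 FPKM in FCA, 21.86, 22.10 and 22.91 FPKM in AT10, 17.39, 16.74 and 16.08 FPKM in AT1, and 18.88, 17.98 and 15.96 FPKM in AT01. Its AT10 libraries lay nearest to FCA and above the other doses without overlap, by 0.39 (SE 0.058, limma adjusted p = 0.162) against AT1 and 0.33 (SE 0.085, limma adjusted p = 0.867) against AT01. Myl9 went the other way, at 48.80, 47.00 and 43.20 FPKM in AT10, 54.83, 49.15 and 49.16 FPKM in AT1, and 56.43, 57.09 and 52.10 FPKM in AT01, with AT10 under AT01 by a log2 difference of -0.25 (SE 0.081, limma adjusted p = 0.867). Stk38 (AT10 against AT01, -0.54), Armc5 (AT1 against AT01, 0.32), Hoxd9 (AT10 against AT1, 0.20) and Rnf19b (AT10 against AT1, 0.18) had limma adjusted p-values of 0.748 to 1.

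Counts of members without overlap between doses stood near or under the background. AT10 lay under AT1 in 10 members (4.52%, against 8.16% of all tested records) and above it in 9 (4.07% against 5.7%). AT10 lay under AT01 in 9 members (4.07% against 6.47%) and above it in 6 (2.71% against 4.64%). AT1 lay under AT01 in 11 members (4.98% against 3.75%) and above it in 13 (5.88% against 4.86%).

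Medians of single libraries of one dose lay further apart than the medians of the doses. Each dose value averages 3 libraries, which by itself narrows the spread between doses. The median difference of the members from the FCA mean was -0.142, -0.195 and -0.262 on the log2 scale in AT10 replicates 1, 2 and 3, -0.216, -0.191 and -0.227 in AT1, and -0.152, -0.214 and -0.272 in AT01. For all tested records the library medians lay between -0.030 and 0.033. AT10 replicate 1 and AT01 replicate 1 lay nearest to FCA and held the highest TCDCA value of 64 and 44 members. AT10 replicate 3 and AT01 replicate 3 held the lowest TCDCA value of 59 and 50 members. In each of the 4 groups the library numbered 3 had the lowest median. In FCA and AT1 it lay close to replicate 1, with medians of -0.014, 0.024 and -0.018 in FCA replicates 1, 2 and 3. The lowest FCA value belonged to FCA replicate 3 in 97 members, to replicate 1 in 83 and to replicate 2 in 41. The number of records that met the rule rose to 588 without FCA replicate 3, 491 without FCA replicate 1, 397 without FCA replicate 2 and 375 without AT10 replicate 1, since fewer libraries had to be separated.

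**Figure D5:**
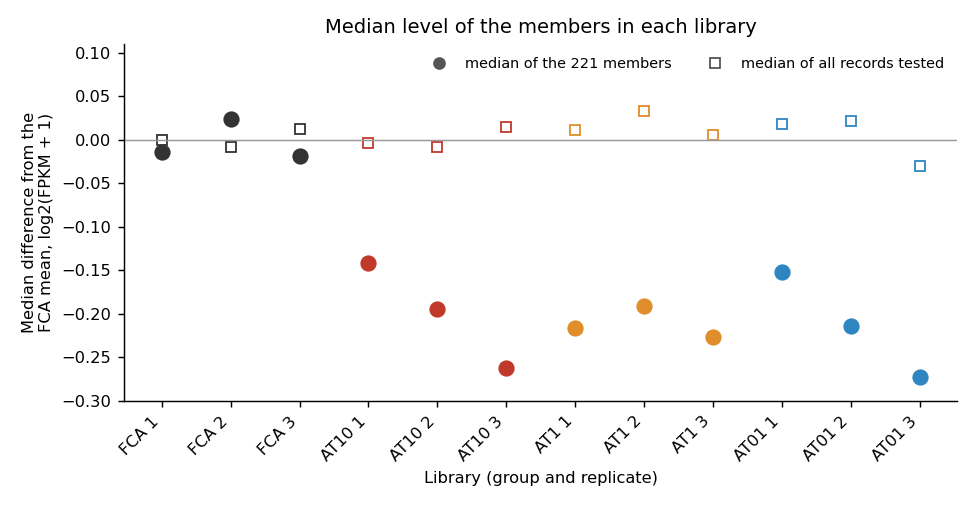
Median difference from the FCA mean on the log2(FPKM + 1) scale (vertical axis) in each of the 12 libraries (horizontal axis), for the 221 members (filled circles) and all tested records (open squares). The members lie between -0.272 and -0.142 in the 9 TCDCA libraries, and all tested records lie between -0.030 and 0.033.

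Many members sat close to the limits of the rule. By the gap, Cyba was just inside (103.17 FPKM in its lowest FCA library and 103.16 FPKM in its highest TCDCA library), followed by the homeobox gene Prrx2 (123.47 and 123.38 FPKM) and Ctif (7.65 and 7.64 FPKM). Just outside were MSTRG.4494, Safb2 and Slx4, whose lowest FCA and highest TCDCA values were equal (7.62, 4.53 and 3.93 FPKM). By mean level, Vsig10l (1.128 FPKM) and Tnxb (1.271 FPKM) were just inside, and SNORA4 (0.959 FPKM) and Spata2L (0.932 FPKM) were just outside. Of the 26 members whose gene name was on more than 1 record, 19 were also lower in every TCDCA library after summing the records of the name, and 7 (Tnxb, Ntng2, Lrig3, Scap, Sp2, Cit and Ctif) were not.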

How the data were processed

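Poly(A) RNA of 12 FLS libraries was sequenced as paired ends. According to the methods and labels, reads were trimmed with cutadapt, aligned with HISAT2, and assembled and quantified with StringTie and Ballgown. The genome build is not given in the sources used here. The authors deposited FPKM per gene record with 2 decimals, without counts. The paper gives the total reads of each library, which differed between libraries. The reads behind a single value are unknown, so no counting interval is given. Gene names, descriptions and annotation terms were those in the deposited table. The library preparation marked strand, but strand use in counting is not stated, so overlapping genes are uncertain.

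Values were transformed as log2(FPKM + 1), and 11611 records averaging at least 1 FPKM were tested in limma 3.58.1 (R 4.3.3, trend of variance) between pairs of doses and for a slope over log10 dose, with Benjamini-Hochberg adjustment over all of them. The fits were tested on simulated data. Groups came from the labels. The members, gene lists and tests were chosen with earlier results of these data known. The genes named were the members with the 12 largest differences, the 8 widest gaps and the 8 highest levels, those called between doses, up to 4 per gene list, those at the borders of the rule, and a few named for their function after their values were seen. Functional groups were also set by hand after that, from members only, so their sizes have no share of tested records beside them. Alternatives were pseudocounts, filters, scalings, a shared fit, a replicate block and leaving out each library. The study describes the replicate numbers as repeats of the study, without saying whether a number marks a shared day or culture. The 18 correlations between same-numbered libraries of different groups ran from -0.105 to 0.0942, none over 0.1, so the fits with the number as a block were kept as an alternative.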

Additional observations from a re-analysis of the deposited data

Results flagged for a closer look

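Tmem119 was flagged because its level differed between 2 doses by a test of that difference. AT10 was higher than AT01 by 3.18 on the log2(FPKM + 1) scale (limma adjusted p = 0.00123), with 85.65, 80.03 and 79.57 FPKM in AT10 against 9.68, 6.76 and 8.13 FPKM in AT01. The AT1 libraries stood at both levels, at 5.11, 6.55 and 81.37 FPKM. Groups of 3 libraries were not tested for single outlying libraries.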

How the results depend on the processing

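The reads behind each FPKM value are unknown, so a small gap between groups cannot be set against counting error. The count of 221 members was 247 with median-of-ratios scaling, 217 with records summed by gene name, 217 without the 4 records at 2 levels (chosen after seeing the data), 130 with a minimum mean of 10 FPKM and 128 with scaling to the library sum. It ranged from 237 to 588 when 1 library was left out, since fewer libraries had to be separated. The median difference (FCA minus TCDCA) was 0.21 to 0.25 under the other alternatives tried, and 0.20 with scaling to the library sum, added after seeing the data. Of 3094 recomputed differences of single members 0 reversed and 35 moved by more than the spread of the 9 TCDCA libraries. Among these alternatives only median-of-ratios scaling could have reversed a member. With 1 library left out or another pseudocount, the rule itself fixes the sign. The count in the order AT10 below AT1 below AT01 was 25 to 51 with 1 library left out and 34 otherwise.

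In the tests between doses, one fit over all 12 libraries gave 3 records for AT10 against AT1, 0 for AT10 against AT01 (0 members) and 2 for AT1 against AT01, by limma. A minimum mean of 10 FPKM gave 5 for AT10 against AT01 and 7 for AT1 against AT01. With 1 library left out, limma called 26 to 50 records and 0 to 1 members for AT10 against AT1, 12 to 24 records for AT10 against AT01, and 11 to 25 for AT1 against AT01. The replicate block gave 1, 0 (0 members) and 2 records, with an adjusted p of 0.0507 for Tmem119. Its adjusted p was 0.00102 to 0.0150 under the remaining alternatives, apart from the shared fit (0.426).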
